A study of Homo sapiens with 6 samples.

Results

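Potassium channel subunits were described in lenvatinib-resistant TPC-1 cells, a human papillary thyroid carcinoma line. The members were protein-coding genes of the deposited table whose symbol begins with KCN, and 66 of its 22681 genes were described. Cultures carried either a non-targeting control hairpin (shNC, n = 3) or a hairpin against KRT15 (shKRT15, n = 3). All 6 were resistant cells kept in 10 µM lenvatinib, a kinase inhibitor, so the comparison holds no sensitive or untreated cells. The hairpins were introduced by liposomal transfection, and the labels do not state how long after transfection the cells were harvested. The labels do not tie the replicates to separate transfections, and the tests reflect only how much these 3 cultures a group varied.

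Potassium channels let potassium leave the cell down its gradient and so set the resting membrane potential, cell volume and the driving force for calcium entry. Voltage-gated, calcium-activated and inward-rectifier channels are tetramers of pore subunits, two-pore-domain channels are dimers, and many carry accessory subunits that change gating or trafficking. In thyroid follicular cells the pore subunit KCNQ1 with its partner KCNE2 is known to form a channel that supports iodide uptake.

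The libraries held 36286059 to 36808695 reads in shNC and 39868231 to 41343780 in shKRT15. The targeted gene KRT15 had 1040, 1137 and 1284 reads in the shNC libraries and 1024, 1044 and 1005 in the shKRT15 libraries. Scaled to library size with TMM factors (CPM), that was 32.3 ± 3.77 (SD, n = 3) against 24.7 ± 0.365 (SD, n = 3), a modest fall (log2 fold change −0.38 ± 0.10 SE, edgeR quasi-likelihood test, adjusted p = 0.00465). Among thyroid markers PAX8 (375 and 410 CPM) and FOXE1 (14.6 and 15.3 CPM) were present in both groups, TG was low (1.58 and 0.808 CPM), and TSHR and NKX2-1 had 1 read each over the 6 libraries. The cells are labelled epithelial, and KRT18 was abundant, but the epithelial markers CDH1 and EPCAM had only 5 and 8 reads in all.

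Most channel genes were scarce. Members took 11909 to 13666 reads per shNC library and 14826 to 15597 per shKRT15 library, 0.0328 to 0.0381% of all reads. Of the 66 members, 33 had a read in every library and 46 had at least 10 reads over the 6 libraries. The filter on low counts passed 31, which are called tested here. KCNK3, KCNMA1, KCNJ16, KCNQ3 and KCNN4 together held 76.1% of member reads in shNC and 80.4% in shKRT15. Per kilobase of merged exons, KCNK3 stood first in shNC at 17.2 ± 0.498 CPM per kb (SD, n = 3), followed by KCNN4 at 8.79 ± 0.299, KCNJ16 at 4.003 ± 0.174 and KCNQ3 at 3.51 ± 0.333. These levels were apart by more than their SDs, except that KCNJ16 and KCNQ3 lay close together. In shKRT15 KCNK3 stayed first at 15.65 ± 1.01, and KCNJ16, at 10.16 ± 0.513, stood above KCNN4 at 8.77 ± 0.802. The order depends on the length used. Per kilobase of the longest coding transcript, KCNK3 and KCNJ16 were nearly level in shKRT15, at 15.8 and 15.4 CPM per kb. KCNMA1 was at 1.89 CPM per kb of merged exons in shNC, but at 5.59 per kb of its longest coding transcript.

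**Figure D1:**
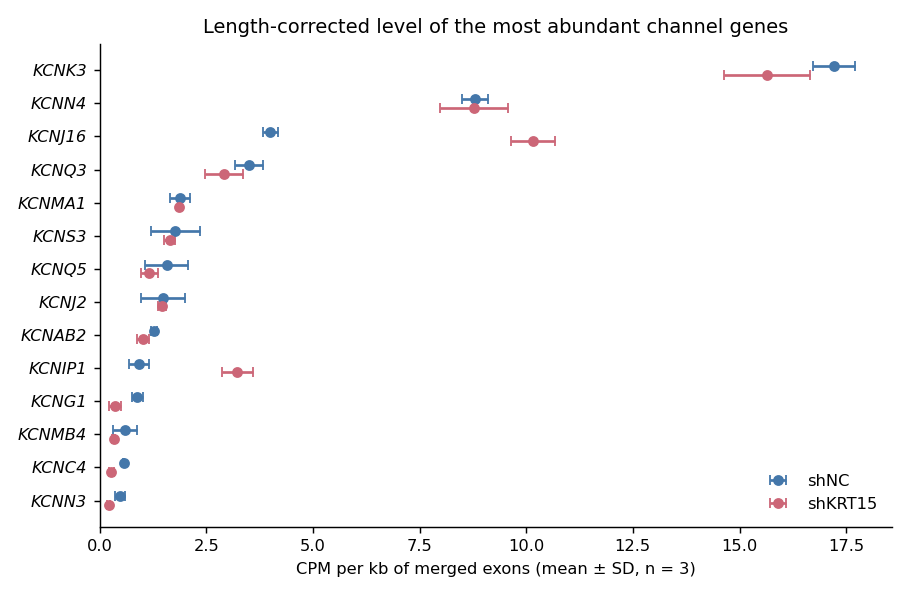
Mean CPM per kilobase of merged exons (horizontal axis) with SD over 3 libraries for the 14 tested members highest in shNC, in shNC (blue) and shKRT15 (red). KCNK3 leads in both groups, and KCNJ16 moves from 4.003 to 10.16 CPM per kb.

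Against the control, 4 of 31 tested members rose in shKRT15 (KCNJ16, KCNIP1, KCNH3 and KCNIP3), 6 fell (KCNT2, KCNC4, KCNN3, KCNG1, KCNIP4 and KCNMB4) and 21 did not pass the test (Benjamini-Hochberg adjusted p under 0.05 over all genes, edgeR). In bulk RNA, fewer cells with a transcript and less of it per cell cannot be told apart. Called members made up 32.3% of those tested, beside 45% of all 14356 genes tested (22.1% higher, 23% lower). Of the 31 tested members, 8 (25.8%) were called with a change of at least 2-fold, beside 8.95% of all tested genes. Among those 8, KCNT2, KCNIP4 and KCNH3 passed the low-count filter only through the group where they were higher. The median log2 fold change over the 31 was −0.24, against 0.00 over all tested genes, and the median absolute value was 0.43 against 0.31. In these comparisons the members and all genes were not matched for level, and 12 of the 31 lay under 1 CPM. Of the 5 members over 20 CPM only KCNJ16 was called, and the other calls were spread over 14 members at 1 to 20 CPM (3 higher, 4 lower) and 12 under 1 CPM (2 lower). The number of falls was 11 without shNC replicate 3, where KCNQ3, KCNQ5, KCND3, KCNAB2 and KCNE3 joined.

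**Figure D2:**
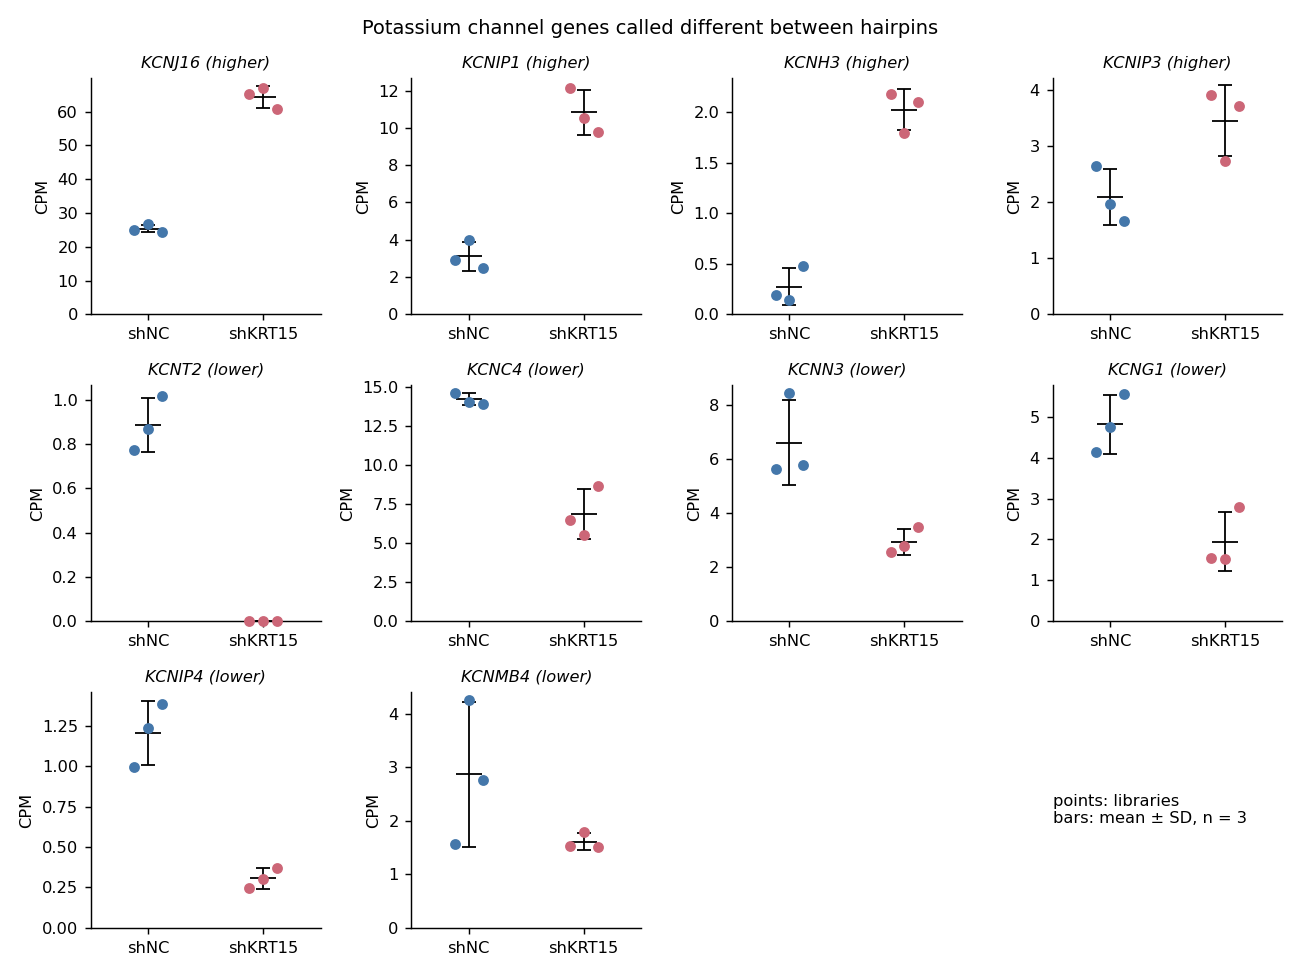
CPM of the 10 called members in each library, with mean and SD (n = 3) on linear axes from 0. The groups are apart for 9 of these called members, KCNT2 is at 0 in all shKRT15 libraries, and only KCNMB4 overlaps. Of all 31 tested members, called or not, 11 had groups apart, beside 54% of all tested genes.

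The 250 bases before the RefSeq start (GRCh38.p14) are shown for the most abundant riser, the accessory subunit with the largest rise, and the pore subunit with no read in shKRT15, with motif matches in capitals.
KCNJ16, chr17:70074975-70075224 (plus strand): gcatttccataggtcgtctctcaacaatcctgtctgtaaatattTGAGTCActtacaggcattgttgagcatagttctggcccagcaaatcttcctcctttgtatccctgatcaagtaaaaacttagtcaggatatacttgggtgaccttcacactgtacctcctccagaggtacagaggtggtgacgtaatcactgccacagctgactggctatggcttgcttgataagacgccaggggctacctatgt
KCNIP1, chr5:170353237-170353486 (plus strand): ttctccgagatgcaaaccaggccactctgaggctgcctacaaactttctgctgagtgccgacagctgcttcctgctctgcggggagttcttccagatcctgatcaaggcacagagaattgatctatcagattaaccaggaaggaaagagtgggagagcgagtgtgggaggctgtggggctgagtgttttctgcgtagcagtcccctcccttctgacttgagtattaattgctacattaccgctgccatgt
KCNT2, chr1:196608441-196608690 (minus strand): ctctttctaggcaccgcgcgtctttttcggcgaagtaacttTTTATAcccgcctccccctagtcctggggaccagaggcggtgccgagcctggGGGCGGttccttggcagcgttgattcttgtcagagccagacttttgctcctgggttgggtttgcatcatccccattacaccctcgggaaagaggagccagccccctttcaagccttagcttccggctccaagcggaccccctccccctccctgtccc
Both strands were searched for the AP-1 element TGANTCA, the E-box CACGTG, the core promoter element TATAAA, the GC box GGGCGG and the CCAAT box. KCNJ16 holds an AP-1 match, which 6.55% of 27195 such windows hold. KCNT2 holds TATAAA (11.1% of windows) and GGGCGG (42.4%), and KCNIP1 holds none of the 5. The TATAAA match of KCNT2 is on the strand opposite to the one printed. It lies nearer the upstream end of the window than the start, and whether it acts as a core promoter element was not tested. The printed windows carry 3 CG dinucleotides in KCNJ16, 6 in KCNIP1 and 13 in KCNT2, where the median over all windows is 11. Of the 10 called members, KCNC4, KCNIP1, KCNIP3, KCNIP4, KCNJ16, KCNN3 and KCNT2 could be matched to a window, 7 in all. A gene can have other starts, and the counts do not say which one was used.

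Inward rectifiers pass potassium more easily into the cell than out and hold the resting potential. Their summed level rose from 1402, 1364 and 1143 reads in shNC to 3111, 3373 and 2884 in the deeper shKRT15 libraries. Relative to library size, it went from 36.4 ± 3.61 to 75.3 ± 3.67 CPM (SD, n = 3). One gene carried this. KCNJ16, a pH-sensitive subunit known from kidney where it pairs with KCNJ10, had 907, 948 and 868 reads in shNC and 2677, 2881 and 2459 in shKRT15. Every shKRT15 library lay far above every shNC library. The level rose 2.54-fold, from 25.4 ± 1.10 to 64.4 ± 3.25 CPM (log2 fold change 1.34 ± 0.09 SE, adjusted p = 1.53e-09). KCNJ10 was not analysed here. Without KCNJ16 the other 12 inward rectifiers summed to 11.03 ± 3.01 and 10.9 ± 0.524 CPM.

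The next gene along the chromosome did not share the rise. KCNJ2, the classical strong inward rectifier, lies on chromosome 17 at 70169532 to 70180044, 33923 bases beyond the end of KCNJ16 (70075225 to 70135608) and on the same strand. It had 389, 324 and 181 reads in shNC and 351, 358 and 306 in shKRT15, with overlapping groups (log2 fold change −0.03, 95% interval −0.46 to 0.41, adjusted p = 0.928). The shNC libraries had a log2 ratio of KCNJ16 to KCNJ2 of 1.22 to 2.26 and the shKRT15 libraries one of 2.93 to 3.01, a difference of 1.30 with no overlap. By an exact permutation test (two-sided) p was 0.1, and groups of 3 libraries can give no smaller value. The pair of KCNJ16 and KCNJ2 was chosen after its values were seen. By the same exact permutation test, KRT15 gave p = 0.1 and the ratio of KCNMA1 to KCNMB4 gave p = 0.4.

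The other tested inward rectifiers were low and none passed. The strong rectifiers KCNJ14 (−0.27 on the log2 scale), KCNJ4 (−0.09) and KCNJ12 (0.08), the renal secretory channel KCNJ1 (−0.25) and the G-protein-gated subunit KCNJ5 (1.19) had intervals that each took in a 2-fold change. KCNJ12 is nearly identical to KCNJ18 (21 reads), and reads may have been split between them. KCNJ6, a G-protein-gated subunit, had 44 reads, KCNJ15 had 15, and KCNJ11, the pore of ATP-sensitive channels, had 9 in shNC and 11 in shKRT15. The remaining members, KCNJ9 and KCNJ13, had at most 3 reads each.

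Two-pore-domain channels carry the background leak current, and here nearly all of it by read count was KCNK3. This acid-sensitive channel (TASK-1) had 4009, 3745 and 3741 reads in shNC and 4088, 3877 and 4130 in shKRT15. Scaled to depth it stood at 107 ± 3.10 CPM in shNC and 97.4 ± 6.28 in shKRT15 (SD, n = 3), and the groups did not overlap, as for 54% of all tested genes. The difference was small and did not pass (log2 fold change −0.14, interval −0.29 to 0.02, adjusted p = 0.144). It did pass after correction for GC content and length (−0.28, adjusted p = 0.000461).

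Other leak channels were at or under about 1 CPM. KCNK6 (−0.24) and the mechanosensitive KCNK2 (0.41) did not pass. KCNK13, a halothane-inhibited subunit, did not reach the filter, with 0, 0 and 0 reads in shNC against 12, 7 and 4 in shKRT15. The group at 0 makes this at least 6.62-fold higher, taking 3 reads over the group as the floor. KCNK13 was called in the fit that kept every gene. KCNK12, KCNK5, KCNK7 and KCNK1 had 5, 5, 3 and 2 reads over the 6 libraries. KCNK9, a relative of KCNK3, had 2 shNC reads and 14 shKRT15 reads, which is 6.04 times higher (exact 95% interval 1.39 to 54.8, counting error only). By the same counting, some untested members of other classes were lower in shKRT15. KCNG2 and KCNH8 were each 11.6 times lower (1.65 to 503), KCNMB1 9.27 times (1.24 to 411) and KCNMB3 6.95 times (2.03 to 36.8). For each of these fallers the groups overlapped in CPM. KCNK10 had 79 reads, 24 and 29 of them in shNC replicate 3 and shKRT15 replicate 3.

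Calcium- and sodium-activated pore subunits link ion entry to potassium efflux. The class stood at 105 ± 8.48 CPM in shNC and 99.1 ± 2.89 in shKRT15, carried by KCNMA1 and KCNN4, whose levels differed little between the groups. KCNMA1, the pore of the large-conductance BK channel, had 2615, 2584 and 2046 reads in shNC and 2672, 2871 and 2692 in shKRT15 (log2 fold change −0.03, interval −0.22 to 0.16). KCNN4, the intermediate-conductance channel of lymphocytes and epithelia, had 1048, 1068 and 1098 reads against 1254, 1154 and 1302 (0.00, interval −0.21 to 0.20). Both intervals leave out a 2-fold change in either direction.

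The 2 less abundant tested members of that class fell. KCNN3, a small-conductance channel gated through bound calmodulin, had 204, 301 and 205 reads in shNC and 105, 120 and 141 in shKRT15. The groups did not overlap, and its level dropped from 6.62 ± 1.58 to 2.95 ± 0.480 CPM (log2 fold change −1.17 ± 0.21 SE, adjusted p = 0.000180). KCNT2, a sodium-activated channel mapped to chromosome 1 (196225779 to 196608440), had 28, 31 and 36 reads in shNC and none in any shKRT15 library. It was at least 36.7-fold lower, with 3 reads over the group as the floor (adjusted p = 1.69e-05). No KCNT2 exon overlaps an exon on the opposite strand in GENCODE release 29. Of the untested members, KCNN1 had 7 reads and KCNU1 1.

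**Figure D3:**
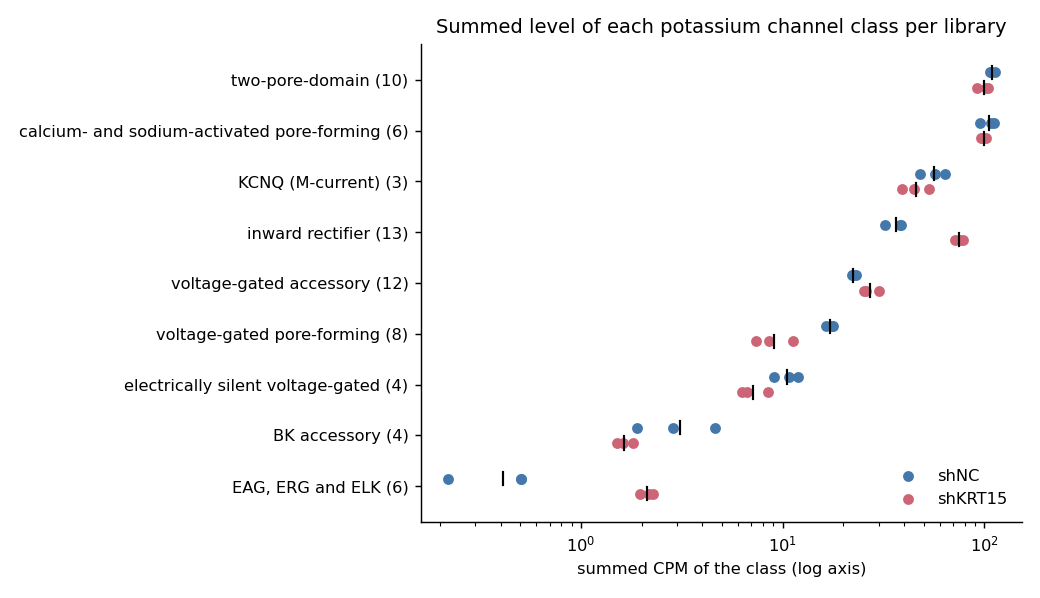
Summed CPM of each class (horizontal log axis) in every library, with the number of members in brackets and vertical ticks at the means. The inward rectifiers shift from 36.4 to 75.3 CPM, the EAG, ERG and ELK class from 0.411 to 2.14 CPM, and the two-pore-domain class from 109 to 99.7 CPM.

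BK channels are tuned by beta subunits, and KCNMB4, the form best known from brain, was the only one tested. It had 57, 152 and 98 reads in shNC and 63, 77 and 61 in shKRT15. The groups overlapped: shNC replicate 1 lay within the shKRT15 range in CPM. It was called lower (−0.83 ± 0.32 SE, adjusted p = 0.0431), but the call was lost without shNC replicate 2 (−0.43, adjusted p = 0.342), when any 1 of the 3 shKRT15 libraries was left out (0.0724 to 0.114), with limma-voom (0.0968) and with total-count scaling (0.0746). KCNMB3 had 11, 6 and 1 reads in shNC and 2, 1 and 0 in shKRT15, and the groups overlapped. Of its exon bases, 37.9% overlap exons of PIK3CA on the opposite strand. KCNMB1 and KCNMB2 had 9 reads and 1 read.

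Among voltage-gated pore subunits, which open on depolarization, 1 of 3 tested fell and none rose. KCNC4, a fast-inactivating Shaw-type subunit, had 530, 500 and 493 reads in shNC and 264, 238 and 349 in shKRT15. The groups were clearly apart, with a 2.06-fold fall from 14.2 ± 0.387 to 6.87 ± 1.59 CPM (log2 fold change −1.05 ± 0.15 SE, adjusted p = 2.41e-05).

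The A-current subunits KCND1 (0.27) and KCND3 (−0.65, adjusted p = 0.0997) did not pass, and KCND3 was called lower without shNC replicate 3 (−0.86, adjusted p = 0.0246). KCNC2 and KCND2 had 7 and 8 reads in shNC and 0 in shKRT15, too few to test. The Shaker-type genes KCNA2, KCNA6 and KCNA10 had 5, 6 and 5 reads in all.

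Electrically silent subunits form no channel alone and modify other pore subunits. KCNG1 fell from 150, 169 and 197 reads in shNC to 63, 65 and 113 in shKRT15, with no overlap (log2 fold change −1.31 ± 0.25 SE, adjusted p = 0.000443). KCNS3, with 275, 150 and 173 reads against 208, 205 and 226, overlapped and did not pass (−0.11, interval −0.54 to 0.32). KCNG2 and KCNG3 had 11 and 13 reads, 10 of those of KCNG2 in shNC replicate 3.

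In the ether-a-go-go family, which includes the EAG, ERG and ELK channels, only KCNH3 was tested. This ELK-type subunit, best known from forebrain, had 7, 5 and 17 reads in shNC and 89, 77 and 85 in shKRT15. The lowest shKRT15 library stood well above the highest shNC library, and the mean went from 0.271 ± 0.183 to 2.02 ± 0.202 CPM (log2 fold change 2.89 ± 0.45 SE, adjusted p = 5.01e-05). Without shNC replicate 3, which held 17 of the control reads, the log2 fold change was 3.57 (adjusted p = 2.2e-06), the largest with a library left out. The smallest was 2.58, without shNC replicate 2 (adjusted p = 0.00033). KCNH1 (15 reads) and KCNH8 (11 reads) were untested, and KCNH4, KCNH5 and KCNH7 had 1 read each.

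KCNQ channels carry the M-current, a slow current that damps excitability. KCNQ3 had 1728, 1629 and 1404 reads in shNC and 1512, 1823 and 1269 in shKRT15, and KCNQ5 had 580, 401 and 300 against 331, 454 and 316. Both sets overlapped, and neither passed (KCNQ3 −0.26 ± 0.11 SE, adjusted p = 0.0583; KCNQ5 −0.43 ± 0.19, adjusted p = 0.0834). Each was called lower without shNC replicate 3, at −0.34 (adjusted p = 0.00954) and −0.63 (adjusted p = 0.00288), and without shKRT15 replicate 2 (adjusted p = 0.0154 and 0.0480). Neither was called when any other library was left out. KCNQ3 was then as small as −0.16 (without shKRT15 replicate 3, adjusted p = 0.271) and KCNQ5 −0.15 (without shNC replicate 1, adjusted p = 0.522). KCNQ3 was also called lower after correction for GC content and length (−0.28, adjusted p = 0.0167). The thyroid pair KCNQ1 and KCNE2 had 8 reads and 1 read over all 6 libraries.

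Accessory subunits of voltage-gated channels moved in both directions. KChIPs are calcium-binding proteins that bring Shal-type channels to the membrane. KCNIP1 had 105, 142 and 88 reads in shNC and 498, 452 and 396 in shKRT15, a 3.47-fold rise from 3.12 ± 0.776 to 10.8 ± 1.21 CPM with a wide gap between the groups (log2 fold change 1.79 ± 0.18 SE, adjusted p = 3.96e-07). KCNIP4 went the other way, from 36, 44 and 49 reads to 10, 13 and 15 (−1.97 ± 0.46 SE, adjusted p = 0.00214). The groups again did not overlap.

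KCNIP3, also known as the calcium-regulated transcriptional repressor DREAM, had 96, 70 and 59 reads in shNC and 160, 117 and 150 in shKRT15. Its groups lay just apart in CPM, at most 2.65 in shNC and at least 2.73 in shKRT15 (0.72 ± 0.25 SE, adjusted p = 0.0260). The call was lost after correction for GC content and length (0.57, adjusted p = 0.0583) and when shNC replicate 2 or 3, or shKRT15 replicate 1 or 3, was left out (0.0743 to 0.103). KCNIP2 had 47 reads and was not tested.

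Among cytoplasmic beta subunits KCNAB2 had 440, 454 and 406 reads in shNC, the most of any accessory gene there, and 464, 384 and 364 in shKRT15, fewer in all than KCNIP1. Its groups did not overlap in CPM, and it did not pass (−0.31, interval −0.59 to −0.04, adjusted p = 0.0619). Corrected for GC content and length, it was called lower (−0.47, adjusted p = 0.00432), as it was without shNC replicate 3 (adjusted p = 0.0448) or shKRT15 replicate 1 (0.0316). KCNAB1 (−0.62) did not pass. KCNAB3 (1.397, adjusted p = 0.184), with 1, 1 and 14 reads in shNC and 9, 28 and 13 in shKRT15, passed without shNC replicate 3 (3.70, adjusted p = 0.00840). The single-pass subunits KCNE4 (−0.31) and KCNE5 (−0.58) did not pass either. KCNE3, which holds KCNQ1 open in gut epithelium, had 29, 16 and 5 reads against 0, 0 and 10 and was not tested, though it was called lower when every gene was kept. KCNRG, a soluble regulator, had 21 reads in shNC and 4 in shKRT15.

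**Figure D4:**
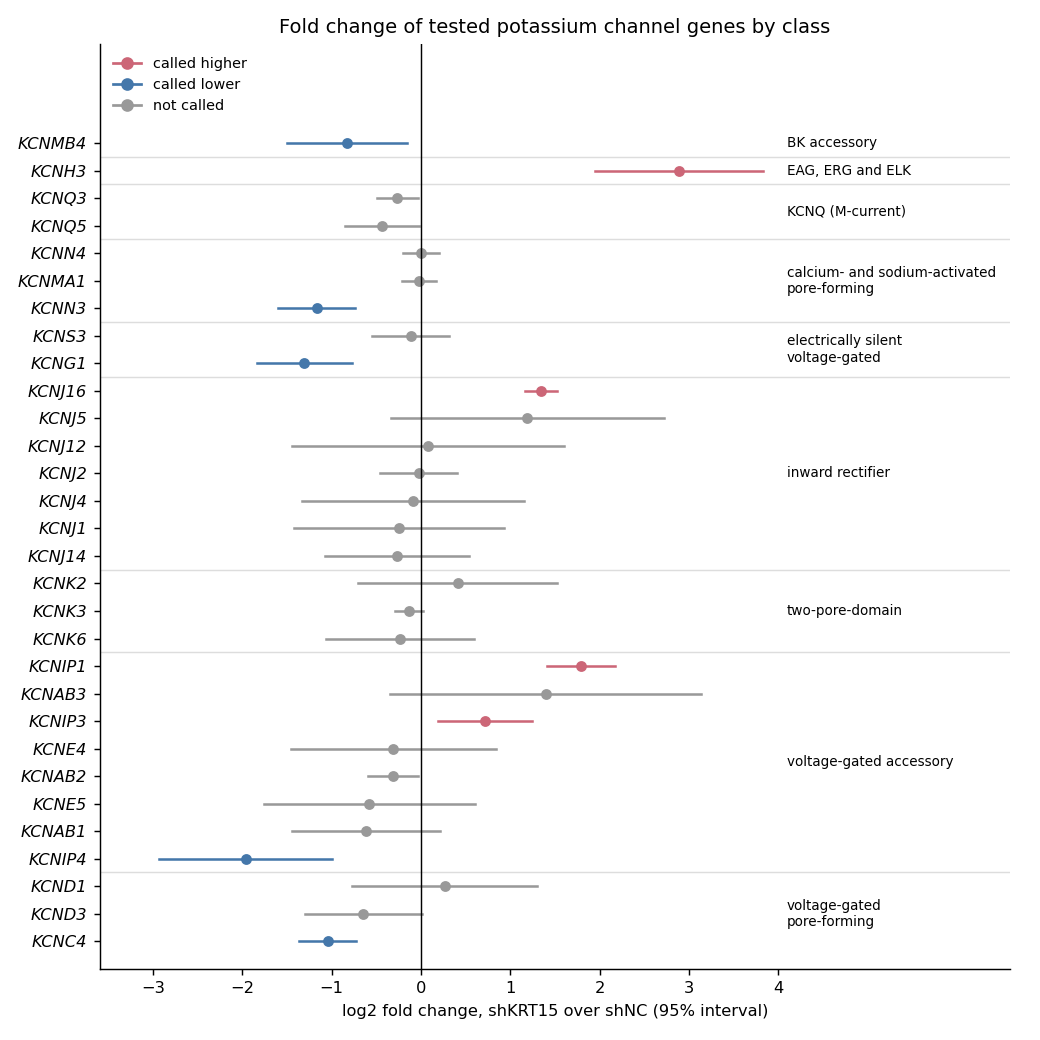
Log2 fold change of shKRT15 over shNC with its 95% interval for 30 tested members, grouped by class. KCNT2 is left out because its shKRT15 counts are all 0. Calls in both directions stand in the voltage-gated accessory class, and grey members include the narrow intervals of KCNN4, KCNMA1 and KCNK3.

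Summed over the 66 members, the level was 361 ± 21.7 CPM in shNC and 367 ± 3.82 in shKRT15 (SD, n = 3). Without KCNJ16 the sums were 335 ± 21.1 and 302 ± 5.48 CPM. The inward rectifiers took 10.1% of member reads in shNC and 20.5% in shKRT15, while the share of two-pore-domain channels went from 30.3 to 27.1% and that of calcium- and sodium-activated pore subunits from 29.1 to 27%. Voltage-gated pore subunits went from 4.78 to 2.46%. These shares are tied to each other, since a rise in one class lowers the rest.

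Marker lists of several cell types were compared as well. Of 5 neuronal markers, 4 were tested and 3 were called lower (RBFOX3, SNAP25 and SYT1), while SYP did not pass (log2 fold change 1.17, adjusted p = 0.0800). The neuronal list summed to 4.18 to 6.19 CPM in shNC and 3.00 to 3.29 in shKRT15. The muscle list summed to 4.78 to 6.12 and 2.12 to 2.87 CPM, with 1 of 3 tested lower and DES at a log2 fold change of 0.50 without a call. Fibroblast markers summed to 16.9 to 21.6 and 4.40 to 5.57 CPM, with both tested members lower, and the leukocyte list to 3.42 to 4.599 and 0.908 to 1.19 CPM, with 1 of 1 lower. PTPRC and COL1A2 were at 0 in shKRT15, against 43 and 13 reads over the shNC libraries. GAP43 was at 0 in shKRT15 and in 2 of 3 shNC libraries. The epithelial list summed to 147 to 160.5 CPM in shNC and 248 to 259 in shKRT15, with 1 of 3 tested higher (KRT18, 0.89, adjusted p = 1.37e-08). The endothelial list summed to 0.702 to 1.35 and 0.955 to 1.78 CPM, with its 1 tested member not called. The part of these cell types in the changes of channel genes was not tested.

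Genes that work beside potassium channels were taken from a list of 56 names, of which 42 were tested. In shKRT15, 7 rose and 20 fell, 64.3% of those tested beside 45% of all genes. The median log2 fold change was −0.19. ABCC9, the sulfonylurea receptor that regulates ATP-sensitive channels, had 599, 674 and 572 reads in shNC and 230, 211 and 212 in shKRT15 (−1.71 ± 0.13 SE, adjusted p = 1.12e-08). Its levels, 17.2 ± 1.502 and 5.26 ± 0.352 CPM, did not overlap. Of its pore partners, KCNJ11 had the few reads given above, and KCNJ8 was not analysed here.

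The kinase SGK1, which raises the surface level of several channels, fell from 383, 456 and 381 reads to 138, 109 and 142 (−1.86 ± 0.17 SE, adjusted p = 9.41e-08). ATP1B1, the beta subunit of the sodium pump that builds the potassium gradient, fell from 210 ± 11.3 to 101 ± 9.83 CPM (−1.06 ± 0.08 SE, adjusted p = 1.21e-08). Of 5 tested sodium pump genes, 2 rose and 3 fell. Of 8 cation-chloride cotransporters and their kinases, 5 fell and none rose. Rises were led by genes of calcium signalling: the calcium release channel ITPR3 (0.52 ± 0.07 SE), the calmodulin gene CALM3 (0.50 ± 0.07 SE) and the store calcium sensor STIM1 (0.44 ± 0.08 SE), with adjusted p = 1.37e-05, 1.70e-05 and 0.000342 in edgeR. Of 8 genes of store-operated entry and calcium release, 3 rose and 2 fell. DPP6, a Shal partner, had 15 reads and was not tested.

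Exons of 5 of the 10 called members overlap exons on the opposite strand in GENCODE release 29. The overlap is 8.0% of exon bases in KCNG1, 7.6% in KCNIP4, 0.8% in KCNJ16, 0.7% in KCNIP1 and 0.3% in KCNH3. The sources do not state whether counting used the strand, and the part of opposite-strand reads in these calls was not tested. Of the 21 tested members without a call, 16 had a log2 fold change below 0 and 5 above. For 8 of them the 95% interval left out a 2-fold change in both directions, and for the other 13 it did not.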

How the data were processed

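RNA was sequenced from 3 shNC and 3 shKRT15 cultures, grouped by their titles. The authors deposited raw read counts per gene with no normalization, and the build was GRCh38 per the submitters' processing notes. The aligner, counter, annotation and strandedness were not given in the sources used here. Members were protein-coding rows with a symbol beginning with KCN. Of 69 such rows, 3 are not reported here, though every gene stayed in the fits. Counts were tested in edgeR 4.0.16 (R 4.3.3) with TMM scaling, filterByExpr (minimum count 10, minimum total 15), the robust quasi-likelihood test with group as its only term, and Benjamini-Hochberg adjustment over 14356 genes. The fit was tested on simulated data. SEs were the log2 fold change over the root of F. Exon lengths and GC content came from GENCODE release 29 (94.4% of tested genes), coordinates and promoters from RefSeq (GRCh38.p14). Chi-square per degree of freedom was 6.16 to 31 within groups and 183 to 211 between them. Each library counted once, and these values do not show whether the cultures came from separate transfections.

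Every tested member was to be named, with counts for called members and the most abundant of each class, and of the partner list the 3 smallest p-values in each direction. Members, lists and tests were chosen with earlier results of these data known. The alternatives were other scaling, DESeq2 1.42.0, voom of limma 3.58.1, other filters, a replicate block, protein-coding genes, a GC content and length correction and leaving out each library. Upper-quartile and total-count scaling and the transcript length were added after seeing the data.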

Additional observations from a re-analysis of the deposited data

How the results depend on the processing

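Of 10 called members, all kept their call and direction with DESeq2, with its size factors in edgeR, with protein-coding genes only, with upper-quartile scaling and with every gene kept whatever its counts. The number called was 8 to 15 when each library was left out in turn and 8 to 14 otherwise. Rises numbered 3 to 4 and falls 5 to 11 when a library was left out, with 11 falls without shNC replicate 3. With a minimum of 1 CPM, KCNIP4 and KCNT2 were not tested. With no filter, KCNE3, KCNK13, KCNQ3 and KCNQ5 were called as well. Partner genes called numbered 20 to 27 when a library was left out and 25 to 29 otherwise, against 27. KRT15 stayed lower in all settings run, at −0.53 to −0.30.

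Same-numbered libraries did not visibly deviate together (correlations 0.019, −0.007 and 0.046), and the main fit used no pairing. Such correlations cannot show whether the libraries were prepared in pairs. With the replicate block, 12 members were called, as KCNQ3 (−0.27) and KCNQ5 (−0.40) joined, and 6733 of all genes in place of 6464.

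Sign changes were found only in members without a call. KCNJ12 turned to −0.24 with limma-voom, −0.0627 with the block and −0.0534 after correction for GC content and length, and ranged from −0.34 to 0.56 when a library was left out. KCNJ2 turned to 0.036 with limma-voom, 0.0232 with the block, 0.12 with the trend removed and 0.0323 with total-count scaling (−0.28 to 0.21 when a library was left out). KCNMA1 turned to 0.0028 with the trend removed and 0.0323 with total-count scaling (−0.13 to 0.0303). KCNN4 turned to 0.00024 with no filter, 0.0028 with the 1 CPM minimum, 0.0077 with upper-quartile scaling and 0.055 with total-count scaling (−0.0576 to 0.0737). KCNE4 ranged from −0.66 to 0.12, KCNJ4 from −0.39 to 0.12 and KCNS3 from −0.28 to 0.18 when a library was left out. The cause was not tested. Total-count scaling moved the median of all genes by 0.06. For 13 members without a call, the interval at this depth does not leave out a 2-fold change.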
